A study of Mus musculus with 92 samples.

Results

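The comparison set the 23 quadriceps muscles with the highest share of mitochondrially encoded transcripts against the 23 with the lowest, 46 of 92 animals in all. The animals were chosen by their measured mitochondrial share. For each, the deposited log2 values were turned back to a linear scale, and the sum over the 13 transcripts whose symbols start with mt- was divided by the sum over all 13441 genes. The animals were DOz mice, which are outbred, so that no 2 were bred to be genetically alike. All were fed standard chow for life and were about 18 to 20 weeks old at collection, and the high and low groups differ by no genotype, diet or treatment that the labels give. Libraries of polyadenylated RNA were made from 500 ng of RNA per muscle. Since the groups were formed from a measured value, the share and the 13 transcripts that make it up are described without a test, and the tests concern the genes of the nucleus.

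Muscle fibres are filled with mitochondria, whose own small circular genome encodes core subunits of respiratory complexes I, III and IV and of the ATP synthase, complex V. These transcripts are made by a dedicated RNA polymerase, Polrmt, as long molecules that are then cut, mostly at tRNAs, into messages, some of which carry a pair of overlapping genes. All other respiratory subunits, the whole of complex II and the proteins that copy, transcribe and translate mitochondrial DNA are encoded in the nucleus and imported. The mitochondrial share of a muscle's RNA therefore has one genome in the numerator and mostly the other in the denominator.

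The table held 13 mitochondrial messages, all protein coding, 12 of them on the plus strand of the mitochondrial genome and mt-Nd6 on the minus strand. Mitochondrial ribosomal RNAs and tRNAs were not analysed here. Some adjoining messages share bases, so that a read from the shared stretch can fit both genes. On the same strand this holds for mt-Atp8 with mt-Atp6, for mt-Nd4l with mt-Nd4 and, by the single base 8607, for mt-Atp6 with mt-Co3, and mt-Nd5 and mt-Nd6 overlap at their ends on opposite strands. The first 2 pairs are shown because mt-Atp8 and mt-Nd4l, the shorter gene of each, had the smallest differences between the high and the low group. The sequences are from GENCODE M21 on GRCm38, plus strand, 5′ to 3′, and capitals mark the bases that also belong to the next gene. For mt-Atp8 (chrM:7766-7969, 204 bases) these are the last 43 bases, shared with mt-Atp6, and for mt-Nd4l (chrM:9877-10173, 297 bases) the last 7, shared with mt-Nd4.
mt-Atp8: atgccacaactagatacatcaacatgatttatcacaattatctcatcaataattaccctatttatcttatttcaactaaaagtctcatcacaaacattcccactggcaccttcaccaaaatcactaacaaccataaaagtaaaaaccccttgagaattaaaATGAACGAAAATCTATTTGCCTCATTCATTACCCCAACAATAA
mt-Nd4l: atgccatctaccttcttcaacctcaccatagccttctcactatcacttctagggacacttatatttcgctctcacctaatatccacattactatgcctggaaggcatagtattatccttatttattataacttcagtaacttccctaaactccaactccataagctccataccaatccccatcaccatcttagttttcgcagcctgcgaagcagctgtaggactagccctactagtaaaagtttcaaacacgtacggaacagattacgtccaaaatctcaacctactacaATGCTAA

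The share ran from 9.63% to 22.2% over the 92 animals, with a median of 16.9%. In the high group the lowest animal had 18.5%, the median was 19.7% and the highest 22.2%, with a mean of 19.9% ± 1.06 (SD, n = 23). In the low group the lowest animal had 9.63%, the median was 12.5% and the highest 14.4%, with a mean of 12.4% ± 1.53 (SD, n = 23). The boundaries cut through a continuous range. The last animal inside the low group had 14.4% and the next one outside it 14.6%, while the first animal of the high group had 18.5% and the one just below it 18.4%. The summed values of nuclear genes had a mean of 842473 per-million units in the high group and 840675 in the low group, whereas the sum over all genes was 1051828 against 959312. The median log2 value of a nuclear gene was 3.49 in both groups. How the deposited values were scaled between animals is not given and can set such closeness, so it is not read as a result.

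**Figure D1:**
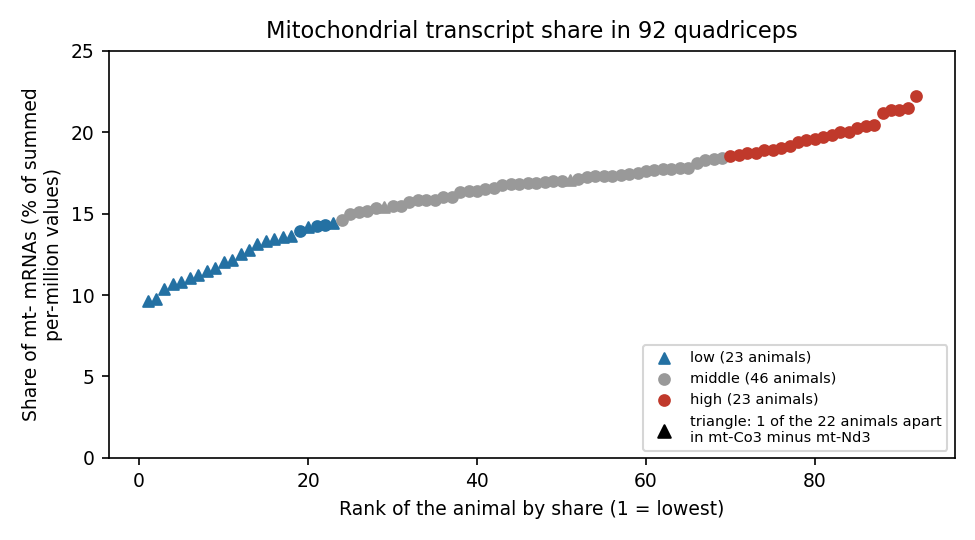
Share of mitochondrial messages in percent of the summed per-million values (vertical axis) for each of the 92 animals in order of rank (horizontal axis), coloured by group. The low group spans 9.63% to 14.4% and the high group 18.5% to 22.2%, and triangles mark 22 animals whose mitochondrial messages stood in other proportions, 20 of which are in the low group.

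The numbers at the end of the sample titles form 5 runs with wide gaps between them, and the labels do not say what they are. The runs held 9, 2, 6, 3 and 3 high animals and 9, 2, 5, 3 and 4 low animals, and the distribution did not differ (two-sided Fisher's exact test over 46 animals, p = 1). Read depth and RNA quality are not given in the sources used here.

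The low group was mostly made of muscles in which the 13 messages stood in different proportions to each other. The log2 value of mt-Co3, a subunit of cytochrome c oxidase, minus that of mt-Nd3, a subunit of complex I, lay between 3.24 and 4.01 in 70 animals and between 4.56 and 4.99 in the other 22, with no animal between. These values are not corrected for length. Of the 78 pairs of mitochondrial messages, 8 had their widest gap between the same 70 and 22 animals. The low group held 20 of the 22, the middle 2 and the high group 0, so that 3 low animals remained with the usual proportions. The 22 occurred in every title-number run, with 9, 3, 4, 2 and 4 animals. Their share ran from 9.63% to 17.1% with a median of 12.3%, against 13.9% to 22.2% with a median of 17.4% in the 70. The values rest on reads assigned to transcripts. Mitochondrial genotypes were not used here, and whether the sequence of an animal's mitochondrial genome bears on how many of its reads were assigned to a message was not tested, so a low share or message is a low assigned value and may not be less RNA. This split was seen in the data and was not part of the plan. The counts of calls, the mitochondrial messages and some of the named genes are given with and without the 22, and the gene lists between high and low with them.

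**Figure D2:**
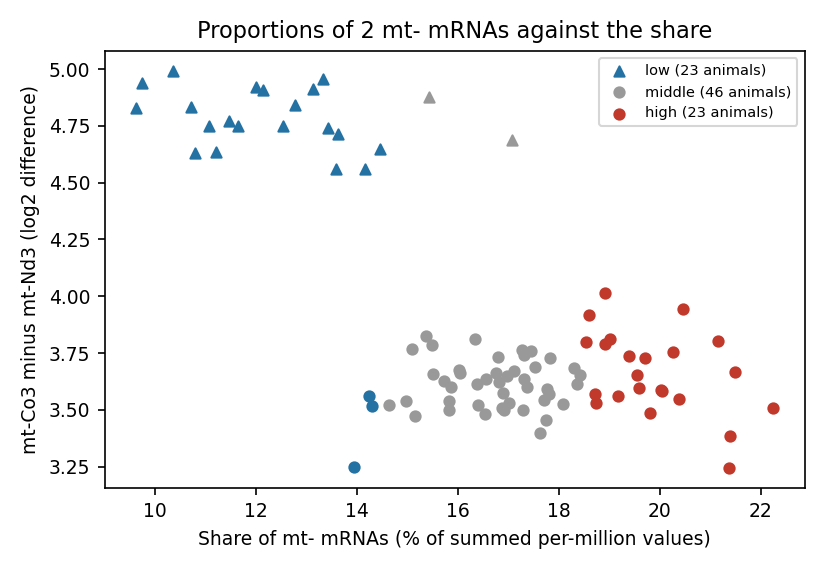
Difference between the log2 values of mt-Co3 and mt-Nd3 (vertical axis) against the mitochondrial share in percent (horizontal axis) for 92 animals. The 22 triangles lie between 4.56 and 4.99 and the 70 circles between 3.24 and 4.01, and 20 of the triangles belong to the low group.

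mt-Co1 and mt-Cytb, the marker messages of the share, encode the catalytic subunit of cytochrome c oxidase and cytochrome b of complex III. On the log2 scale mt-Co1 had a lowest value of 15.32, a median of 15.74 and a highest value of 15.93 in the high group. Its values in the low group were 14.24, 14.70 and 15.28, so the groups did not overlap and their means differed by 1.07. For mt-Cytb the high group had 14.17, 14.48 and 14.89 and the low group 13.37, 13.78 and 14.14, again without overlap, and the means differed by 0.76. These messages enter the share, so both differences follow from the choice of animals.

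The other messages did not follow the share evenly. All 13 had a higher mean in the high group, by 0.16 to 1.38 with a median of 0.76 (log2). The 13 values formed the groups, and 20 of the low animals were among the 22 apart, so these differences are a description. Among the complex I messages the difference was 1.38 for mt-Nd3, 1.26 for mt-Nd2, 0.92 for mt-Nd1, 0.79 for mt-Nd5, 0.67 for mt-Nd4, 0.58 for mt-Nd6 and 0.34 for mt-Nd4l. In complex IV, mt-Co1 stood at 1.07, mt-Co2 at 0.69 and mt-Co3 at 0.44. In the ATP synthase, mt-Atp6 differed by 0.80 and mt-Atp8 by 0.16. The overlapping sequences printed above belong to the pair of messages with the smallest differences.

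The 22 animals were chosen on the difference between mt-Co3 and mt-Nd3, so their values for these messages are a description. For mt-Nd3 the 22 animals apart lay between 8.44 and 9.70 and the other 70 between 9.82 and 11.07, with no overlap. For mt-Co3 the 22 lay between 13.43 and 14.39 and the 70 between 13.45 and 14.33, nearly the same range. When the high group was set against only the 3 low animals with the usual proportions, the 13 differences lay between 0.38 (mt-Nd4l) and 0.77 (mt-Atp6), and mt-Nd3 differed by 0.43 and mt-Co3 by 0.65. As a part of the mitochondrial sum, mt-Co1 had a median of 26.5% in the high group and 21.8% in the low group, mt-Co3 8.64% and 11.6%, and mt-Nd3 0.677% and 0.434%.

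**Figure D3:**
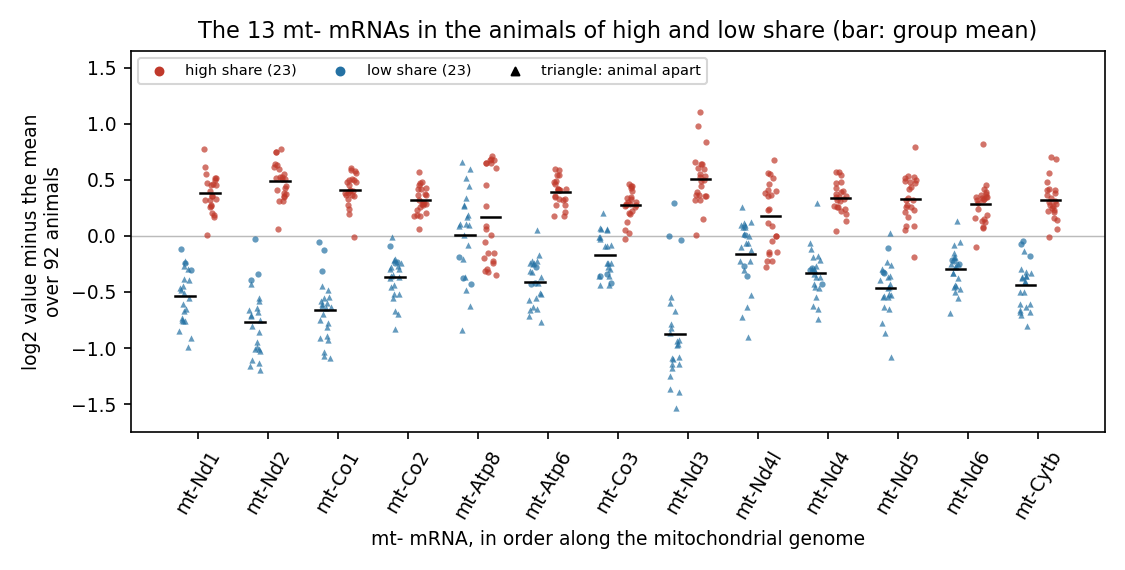
Log2 value of each of the 13 mitochondrial messages minus its mean over 92 animals (vertical axis), in order along the mitochondrial genome (horizontal axis), for the 23 low (blue) and 23 high (red) animals. Bars are group means and triangles are animals apart. The difference of means is 1.38 for mt-Nd3, 0.44 for mt-Co3 and 0.16 for mt-Atp8.

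Across the nuclear genome the high and low groups could not be told apart gene by gene. Of 13426 nuclear genes tested with limma, 0 passed an adjusted p of 0.05 (Benjamini-Hochberg), which is a percent called of 0. At an unadjusted p under 0.05 there were 777 genes (5.79%), 367 higher (2.73%) and 410 lower (3.05%) in the high group. The median difference over all genes was -0.0024 (log2) and the median standard error 0.093. In bulk muscle, fewer cells of a type and less RNA per cell cannot be told apart.

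AW822252, an expressed sequence without a known role, had the smallest p. Its log2 values were 4.54, 5.61 and 6.47 (lowest, median, highest) in the high group and 3.63, 4.86 and 5.92 in the low group. The groups overlapped, and the difference of 0.71 ± 0.15 (SE, limma) had an adjusted p of 0.259. Leaving out the low animal of rank 19 brought the adjusted p of AW822252 to 0.0413, the only gene called when any 1 of the 46 animals was left out.

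Nuclear genes of oxidative phosphorylation leaned towards the high group without passing the test. Of 83 nuclear subunits 0 were called, 66 had a higher mean in the high group (48.9% of all genes did), and the median difference was 0.05 against -0.0024 for all genes. At an unadjusted p under 0.05 there were 19 (22.9%, against 5.79% of all genes), all higher in the high group. The lowest difference of the 83 was -0.10, for Ndufa3 of complex I. The median was 0.06 for the 36 nuclear subunits of complex I, 0.08 for the 4 of complex II, 0.06 for the 10 of complex III with cytochrome c, 0.04 for the 15 of complex IV and 0.06 for the 18 of complex V. Scores of the slow fibre, adipocyte, macrophage, endothelial, fibroblast, Schwann cell and erythroid marker lists, not of the other marker lists, also served as covariates. With these marker scores the medians of complexes I to V were, in order, 0.04, 0.08, 0.04, 0.0089 and 0.03. They were lower than without the scores in every complex except complex II.

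Atp5f1a, the alpha subunit of the ATP synthase, had 10.55, 10.99 and 11.26 (lowest, median, highest log2 value) in the high group and 10.37, 10.80 and 11.06 in the low group. The ranges overlapped widely. The difference was 0.16 ± 0.05 (SE, limma), with a 95% interval, not adjusted for the number of genes, of 0.05 to 0.26 and an adjusted p of 0.757. For Cox4i1, a nuclear subunit of cytochrome c oxidase, the values were 8.31, 8.64 and 9.08 against 8.24, 8.56 and 8.85. Its difference was 0.13 ± 0.05 (SE, limma), with an adjusted p of 0.821. Ndufs1, the largest subunit of complex I, differed by 0.10 ± 0.04 (SE), Sdha, the flavoprotein of complex II, by 0.09 ± 0.05 (SE), and Cs, citrate synthase of the tricarboxylic acid cycle, by 0.01 ± 0.04 (SE), and none passed.

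Among the genes that copy and transcribe mitochondrial DNA, Polrmt had the largest difference. Its log2 values were 3.87, 4.27 and 5.15 in the high group and 3.57, 3.96 and 4.68 in the low group, and the difference of 0.34 ± 0.09 (SE, limma) had a 95% interval of 0.16 to 0.53 and an adjusted p of 0.737. Tfam, which packages mitochondrial DNA and starts its transcription, differed by 0.04 ± 0.05 (SE), with an interval of -0.06 to 0.14. Tfb2m, the partner of the polymerase at promoters, differed by 0.08 ± 0.06 (SE), Twnk, the replicative helicase, by 0.09 ± 0.05 (SE), and Polg, the replicative polymerase, by -0.07 ± 0.07 (SE). Of the 23 genes of this list 0 were called and 17 had a positive difference, with a median of 0.03.

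Genes that process and stabilise mitochondrial messages gave no call. The largest difference of the list was that of Ptcd3, at 0.17 ± 0.05 (SE, limma, adjusted p = 0.75), and Ptcd2 differed by 0.14 ± 0.05 (SE). Lrpprc and Slirp, which together protect these messages, differed by -0.01 ± 0.05 and -0.02 ± 0.06 (SE), and Mtpap, the mitochondrial poly(A) polymerase, by 0.09 ± 0.05 (SE). The 27 genes of the list had a median of 0.0037 (-0.0077 with marker scores as covariates) and 0 calls. The 87 genes of the mitochondrial ribosome and its translation factors had a median of 0.05 (0.03 with marker scores as covariates), 70 positive differences and 0 calls, and the 70 cytosolic ribosomal proteins had a median of 0.01 (-0.0030 with marker scores) and 0 calls.

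Regulators of mitochondrial biogenesis gave no call among 28 genes, with 9 positive differences and a median of -0.02 (-0.03 with marker scores as covariates). Ppargc1a, the coactivator that drives biogenesis in muscle, had 4.97, 5.51 and 6.95 in the high group and 4.64, 5.63 and 8.30 in the low group, a difference of -0.16 ± 0.20 (SE). Ppargc1b differed by 0.10 ± 0.12 (SE), Esrra, an orphan receptor that works with both, by 0.12 ± 0.05 (SE), Esrrg by 0.04 ± 0.11 (SE), and the respiratory factors Nrf1 and Gabpa by -0.02 ± 0.06 and -0.05 ± 0.13 (SE). The 19 genes of the tricarboxylic acid cycle had a median of 0.05, the 24 of fatty acid oxidation 0.04 (0.06 with marker scores as covariates), the 35 of protein import 0.04 and the 26 of glycolysis and glycogen 0.06 (0.04 with marker scores), all with 0 calls. The 9 genes of nuclear-retained and non-polyadenylated RNA had a median of 0.05 (0.01 with marker scores) and 0 calls. The 23 genes of atrophy, glucocorticoid response and the clock had a median of -0.10 (-0.13 with marker scores) and 0 calls.

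Some of these single differences were larger against the 3 low animals of usual proportions alone, a group too small to give much precision. There the difference was 0.32 for Atp5f1a, 0.20 for Cox4i1, 0.21 for Ndufs1, 0.34 for Sdha, 0.19 for Cs, 0.32 for Tfb2m, 0.39 for Esrra and 0.49 for Esrrg. It was -0.28 for Polg, and among the myosin heavy chains -1.44 for Myh7 and -0.32 for Myh2. The sign turned for Tfam (-0.11), Lrpprc (0.14), Ppargc1a (0.12) and Myh4. None of these genes passed in limma. With marker scores as covariates and all 46 animals, the difference was 0.02 for Tfam, -0.04 for Lrpprc, 0.07 for Esrrg, -0.02 for Polg and -0.17 for Myh7.

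Fibre type and other cells were compared in the same fit, and 0 genes were called in any of the marker lists. Of 11 slow fibre markers 2 were higher in the high group, the median difference was -0.24, and their summed level ran from 97.1 to 812 per-million units in the high group (median 221) and from 96.9 to 1773 in the low group (median 274). Myh7, the slow myosin heavy chain, varied from 0.58 to 7.31 in the high group and from 0.51 to 8.41 in the low group, a difference of -0.52 ± 0.59 (SE). Myh4, the fast myosin that defines type 2B fibres, had a median of 15.85 against 15.90, and Myh2 of type 2A fibres 11.04 against 11.27. The 4 type 2A markers had a median difference of 0.05 (0.14 with marker scores as covariates), with 2 positive. The 10 type 2B markers had a median of -0.01 (-0.04 with marker scores), with 2 positive. In all 46 animals Myh4 was at 14.96 or above, as in a fast limb muscle.

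Markers of cells other than fibres were also called in no case. The 8 Schwann cell markers had a median difference of -0.19, with 1 positive, and summed levels of 45.1 to 118 in the high and 28.9 to 98.9 in the low group. The 7 erythroid markers had a median of -0.18, with 0 positive, and summed levels of 261 to 9124 and 308 to 3883. The median was -0.08 for 10 adipocyte markers, -0.05 for 10 macrophage markers, -0.10 for 3 of lymphocytes and neutrophils, 0.02 for 10 endothelial markers, -0.03 for 10 fibroblast markers, -0.02 for 8 markers of pericytes and smooth muscle and 0.07 for 5 of satellite cells. The part of these cells in the differences was not tested.

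With the share taken as a continuous value, the animals between the groups could be used. The slope is given as the log2 change per SD of the log2 share within the animals fitted. That SD was 0.277 in all 92 animals, 0.0857 in the 46 middle ones, 0.156 in 70 animals and 0.212 in the 22 described above, so slopes per SD are not of equal size between these sets. For single genes and the respiratory subunits in several sets, the log2 change per doubling of the share is given. Over all 92 animals 2 genes passed (0.0149% of those tested), AW822252, which rose by 0.26 ± 0.05 per SD (SE, limma, adjusted p = 0.031), and Pcdhgb6, a protocadherin, which fell by 0.25 per SD (SE 0.05, the same adjusted p). Among the 46 middle animals alone 1 gene passed (0.00745%), Mybpc1, the slow-type myosin binding protein C, which rose by 0.23 ± 0.04 per SD (SE, limma, adjusted p = 0.0338). At an unadjusted p under 0.05 the middle animals gave 1097 genes (8.17%), of which 484 had a positive slope (3.6%), and in the 83 nuclear subunits 45 had such a p, all with a positive slope.

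The count in the middle animals changed with the animals and the covariates used. Leaving out the 2 middle animals with other mitochondrial proportions raised the count from 1 to 14 genes, among them Mybpc1, Cox4i1, Ndufs3, Ndufv1 and the phosphate carrier Slc25a3 with positive slopes, named after their values were seen. The adjusted p of Mybpc1 was then 0.000605 (limma). Adding the title-number run to the fit of the 46 lowered the count to 0, so that Mybpc1 lost its call.

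Within the 70 animals of usual proportions, 27 nuclear subunits of the respiratory chain and ATP synthase rose with the share. The share ran from 13.9% to 22.2% in these animals. Of the 13426 genes 127 passed (0.946%; limma, adjusted p under 0.05), 97 rising (0.722%) and 30 falling. Unadjusted p-values under 0.05 were found for 1523 genes (11.3%), and a rising slope with such a p for 6.36%. Of the 83 nuclear subunits of oxidative phosphorylation 27 rose and 0 fell, 75 had a positive slope (49.5% of all genes had one), and the median slope was 0.06 against -0.0005 for all genes. The 70 animals were singled out after the data had been seen, and the same fit over all 92 gave the 2 genes named above. The slope is of nuclear values that share a scale with the divisor of the share. With each animal rescaled to its nuclear sum, 110 genes passed and 103 of the 127 were among them.

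Calls came from every respiratory complex. They were 12 of 36 subunits in complex I, 1 of 4 in complex II, 3 of 10 in complex III with cytochrome c, 4 of 15 in complex IV and 7 of 18 in complex V, against the 0.946% of all genes. Atp5f1a rose by 0.12 ± 0.02 per SD (SE, limma, adjusted p = 4.05e-05) and had a positive slope in each of the 5 title-number runs, from 0.09 to 0.17. The runs are parts of these same 70 animals, so counts of runs for called genes are a description and no separate support. Its medians were 10.74 in the 3 low animals of the 70, 10.78 in the 44 middle ones and 10.99 in the 23 high ones. Cox4i1 rose by 0.11 ± 0.02 (SE, adjusted p = 0.000108), with medians of 8.44, 8.56 and 8.64 in the same order. In complex I, Ndufs8 rose by 0.10 ± 0.02, Ndufb6 by 0.10 ± 0.02 and Ndufs1 by 0.08 ± 0.01 (SE). In complex II Sdhd, a membrane anchor, rose by 0.10 ± 0.02, and in complex III Cyc1, cytochrome c1, by 0.08 ± 0.02 (SE). Cox6a1 had the lowest slope of the 83, at -0.07, and did not pass.

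Polrmt also rose within the 70, by 0.14 ± 0.03 per SD (SE, limma, adjusted p = 0.0121), with positive slopes in 5 of 5 runs, from 0.06 to 0.25. It lost its call when all 92 animals were fitted with the set of 22 as a covariate (limma, adjusted p = 0.0779). Per doubling of the share its slope was 0.91 ± 0.21 in the 70 and 0.52 ± 0.18 (SE) in that fit. In the 70 it was the 1 call among the 23 genes of mitochondrial DNA replication and transcription, where Tfam had a slope of -0.0048 ± 0.02 and Tfb2m of 0.06 ± 0.02 (SE), neither past the threshold. In the list of mitochondrial RNA processing Ptcd3, a pentatricopeptide protein of the mitochondrial ribosome, was the 1 call of 27, at 0.09 ± 0.02 (SE). The mitochondrial ribosome list had 3 calls of 87, all rising (Mrpl50, Mrps2 and Mrpl45), with 72 positive slopes. Of all genes 0.722% were called as rising and 49.5% had a positive slope. The 28 biogenesis regulators had 0 calls and a median slope of -0.02, with Ppargc1a at 0.05 ± 0.06 and Esrra at 0.08 ± 0.02 (SE).

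Genes of fuel oxidation that passed also rose, against 0.722% of all genes that rose and 49.5% with a positive slope. In the tricarboxylic acid cycle with pyruvate dehydrogenase 6 of 19 genes rose and 0 fell, including Idh3a and Idh3g, subunits of isocitrate dehydrogenase, at 0.08 each, Dlat at 0.08 and Pdha1 at 0.07, both of pyruvate dehydrogenase. Of 24 fatty acid oxidation genes 1 rose, Acadvl, the very long-chain acyl-CoA dehydrogenase, at 0.10 ± 0.02 (SE), while all 24 slopes were positive with a median of 0.07. Import had 3 rising genes of 35 (Mtx2, Hspa9 and Samm50) and the dynamics list 2 of 22, Chchd3 and Immt, which shape the cristae. With each animal rescaled to its nuclear sum the import list had 1 call and the dynamics list 2. Glycolysis had 2 of 26, Hk2, the hexokinase of muscle, at 0.15 ± 0.03, and Pgk1 at 0.10 ± 0.02 (SE). The 70 cytosolic ribosomal proteins had 0 calls and a median slope of 0.01.

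**Figure D4:**
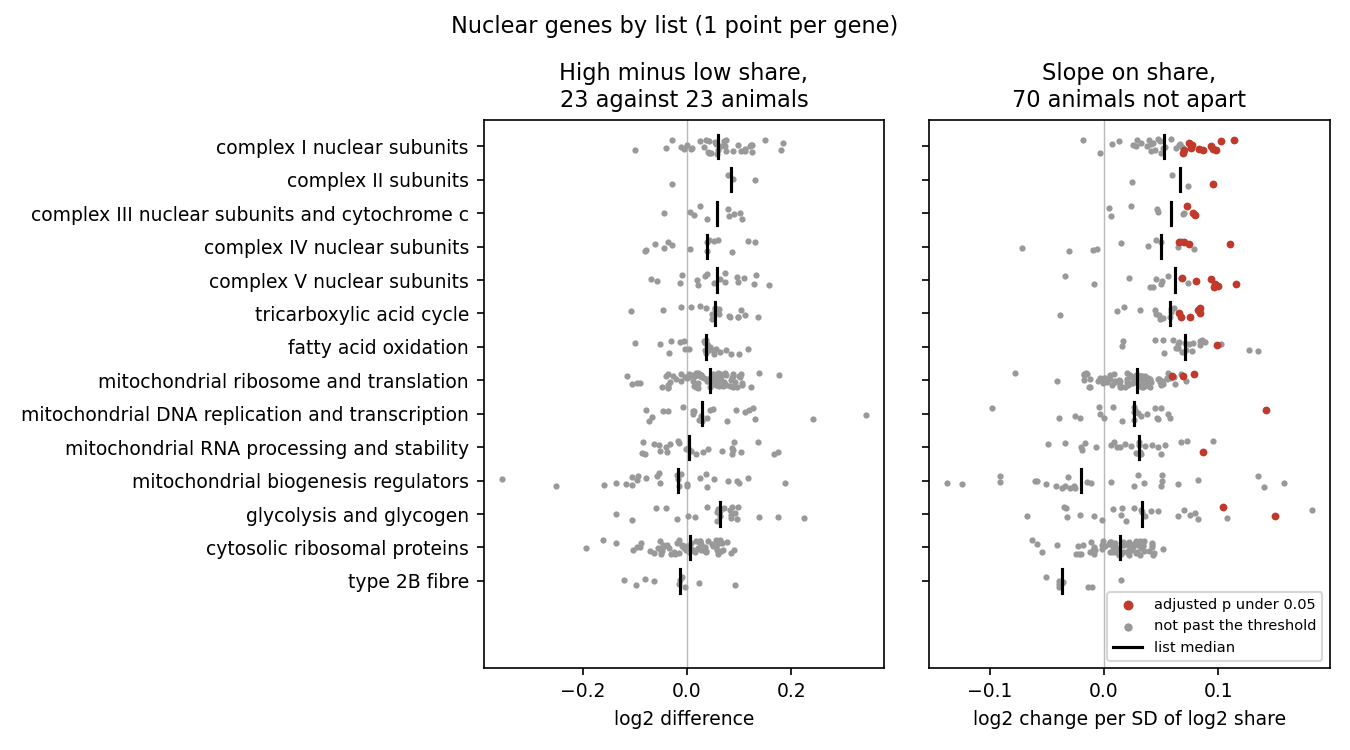
Each point is 1 nuclear gene, by list (vertical axis). The left panel gives the log2 difference between 23 high and 23 low animals and the right panel the log2 change per SD of the log2 share in 70 animals, bars are list medians, and red marks an adjusted p under 0.05. On the left 0 genes passed, and on the right 27 of 83 nuclear respiratory subunits did, all to the right of 0.

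Genes outside the respiratory lists also rose. Ckmt2, the mitochondrial creatine kinase of striated muscle, rose by 0.19 ± 0.03 per SD (SE, limma, adjusted p = 2e-05). In the high animals Ckmt2 had 9.84, 10.21 and 10.84 (lowest, median, highest), and the 3 low animals of the 70 lay between 9.25 and 9.83. Mb, myoglobin, the oxygen store of the fibre, rose by 0.24 ± 0.05 (SE, adjusted p = 0.0014) in 4 of 5 runs and was the 1 call among 6 general myofibre markers. Bdh1, which uses ketone bodies, rose by 0.39 ± 0.11, Slc25a3 by 0.10 ± 0.02, the adenine nucleotide carrier Slc25a4 by 0.08 ± 0.02, Mpc2, part of the pyruvate carrier, by 0.10 ± 0.02, and Vegfa, the angiogenic growth factor, by 0.12 ± 0.02 (SE). Ckmt2, Bdh1, Slc25a3, Slc25a4, Mpc2 and Vegfa were in no list, and Ckmt2, Slc25a3, Slc25a4, Mpc2 and Vegfa were chosen after their values were seen.

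By size, the 12 rising genes with a mean log2 value of at least 1 and the largest slopes were Irf5, Bdh1, Vmn1r13, Calb1, Gm49540, Gm56976, AW822252, Arhgap15, 4930556M19Rik, A430010J10Rik, Mb and St3gal5. Their slopes ran from 0.39 (Irf5, an interferon regulatory factor) to 0.23 (St3gal5, the ganglioside GM3 synthase). Gm49540 shares 62.8% of its 31-base words with other genes, most with Mb, so their reads may not be separable.

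Gm10053 had the smallest p of all genes, with a slope of 0.18 ± 0.02 per SD (SE, limma, adjusted p = 1.57e-06). Of its 31-base words in GENCODE M21, 96.6% also occur in Cycs, the gene of cytochrome c. Cycs itself had a slope of 0.0044 ± 0.05 (SE), and how reads were divided between the pair cannot be seen in these values, so both are uncertain. Among the called genes found in the annotation, 4 shared at least 50% of these words with another gene, Gm10053, Gm49540, Pcdhgb6 and Pgk1.

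The 30 falling genes formed no group among the lists. The 12 with the largest fall and a mean of at least 1 were Aebp1, Vash1, Exoc7, Sytl2, Tnrc18, Itpk1, Mtss2, Gpd2, Sfxn3, Ahnak, Rps6kc1 and Rps6ka4. Aebp1, a protein of the extracellular matrix, had a slope of -0.25 ± 0.06, and Vash1, an inhibitor of angiogenesis, of -0.24 ± 0.06 (SE). Gpd2, the mitochondrial glycerol phosphate dehydrogenase of the glycerol phosphate shuttle, had a slope of -0.15 ± 0.04 (SE), opposite in sign to the called respiratory subunits. Ahnak, a giant scaffold protein, had a slope of -0.14 ± 0.03 (SE).

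The 22 animals apart were not used in that fit and gave a separate reading. With 22 animals 0 genes passed in limma at an adjusted p of 0.05 (0%), and 1210 had an unadjusted p under 0.05 (9.01%). Of the 127 genes called in the 70, 124 had a slope of the same sign in the 22, 95 of the 97 rising and 29 of the 30 falling, against 61.7% with the same sign over all genes. Unadjusted p-values under 0.05 with the same sign were found for 63 of the 127. Of the 83 nuclear respiratory subunits 72 had a positive slope in the 22 (49.5% of all genes did), and the median of the 83 was 0.25 per doubling of the share in the 22 and 0.36 in the 70. Per doubling, Ckmt2 had a slope of 0.94 ± 0.26 (SE) in the 22 and 1.23 ± 0.18 in the 70, and Mb of 1.53 ± 0.36 and 1.53 ± 0.29. For Cox4i1 the slopes were 0.36 ± 0.16 (SE) in the 22 and 0.71 ± 0.11 in the 70, and for Atp5f1a 0.30 ± 0.16 and 0.74 ± 0.11. Polrmt had a slope of -0.17 ± 0.29 (SE) in the 22. The differences between the slopes of the 22 and the 70 were not tested.

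With all 92 animals in 1 fit and the set of 22 as a covariate, 476 genes passed (3.55%), 316 rising and 160 falling, among them 123 of the 127. The 4 that no longer passed were Polrmt, Ncbp3, Pgk1 and Rps6ka4. In that fit 39 of the 83 nuclear subunits rose and 0 fell, as did 12 of 19 genes of the tricarboxylic acid cycle and 10 of 24 of fatty acid oxidation, while 0 of 70 cytosolic ribosomal proteins passed. Of the 28 biogenesis regulators 3 rose, Perm1, Esrrb and Esrrg, against the 3.55% of all genes called in either direction. Of the 10 type 2B fibre markers, Mybpc2 and Actn3 fell and 0 rose.

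**Figure D5:**
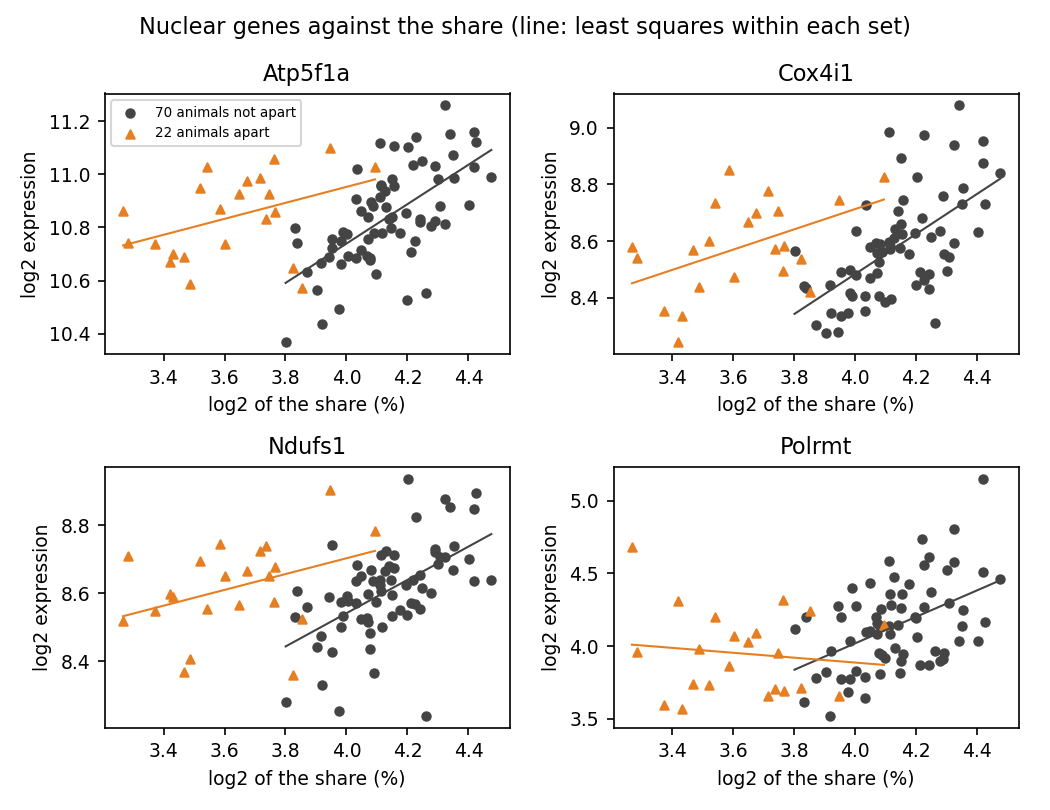
Log2 expression (vertical axes) against the log2 of the share in percent (horizontal axes) for Atp5f1a, Cox4i1, Ndufs1 and Polrmt in 92 animals, with a least squares line for each set of animals. The 22 animals apart (triangles) lie to the left at similar expression, and within both sets the lines of Atp5f1a, Cox4i1 and Ndufs1 climb, while the line of Polrmt climbs in the 70 (0.91 per doubling of the share) and has a slope of -0.17 in the 22.

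Cell type markers were read beside these slopes, with slopes per SD of each set. In the 70 animals 0 slow fibre markers were called and 3 of 11 had a positive slope (median -0.15), whereas in the 22 all 11 were positive (median 0.47). Mybpc1, the slow-type myosin binding protein C, is not in that list and rose in the 70 by 0.15 ± 0.04 per SD (SE, limma, adjusted p = 0.0393), with a positive slope in 5 of 5 runs. The 10 type 2B markers had a median slope of -0.04 in the 70 and -0.07 in the 22, and the 10 adipocyte markers -0.08 and -0.11. Of the 8 Schwann cell markers 0 had a positive slope in the 70 (median -0.05) and 1 in the 22 (median -0.16). Of the 7 erythroid markers 0 were positive in the 70 (median -0.03) and 4 in the 22 (median 0.04), and of the 3 of lymphocytes and neutrophils 0 (median -0.04) and 1 (median -0.11). All 10 endothelial markers had a positive slope in the 70 (median 0.04) and 2 in the 22 (median -0.04), and of the 8 pericyte and smooth muscle markers 6 (median 0.05) and 2 (median -0.05). None of the markers in these lists was called in the 70 or the 22, and their part in the slopes was not tested. With the same marker scores as covariates 152 genes passed in the 70, 96 of them among the 127. Of the 83 nuclear subunits 28 passed, against 27 without. Fast fibre and general myofibre markers, among others, were not in these scores. When the title-number run was added to the fit, 98 of the 127 passed again, and 23 of the 83 subunits did. Of the 127 genes 114 had the same sign in all 5 runs and all 127 in at least 4. The runs are parts of the 70 animals that gave the calls, so this agreement follows largely from the selection.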

How the data were processed

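RNA of 92 quadriceps muscles was analysed as 1 deposited table of log2 values; the scale was read from the values, since linear values add up to between 898071 and 1140761 per animal, close to a per-million scale, so no count test was used. The submitters' processing notes name bcl2fastq, MultiQC, kallisto 0.50.1, edgeR and mm10, with no role or order. Of 13456 lines 15 were repeats. Depth is unknown, so precision comes only from the spread between animals, each 1 sample. Nuclear genes were tested with limma 3.58.1 in R 4.3.3 (mean-variance trend, Benjamini-Hochberg adjustment over 13426 genes), after a check on simulated data. Cep295 and Mtrnr2l7, which share 31-base words with mitochondrial RNAs other than messages, were left out.

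The groups, gene lists and tests were chosen with earlier results of these data known. Genes are named if called, up to 12 per direction with a mean of at least 1, up to 4 per pathway list and 2 per marker list, together with fixed regulators and subunits. Alternatives covered scaling, covariates, filters, an added pseudocount of 1, the definition of the share and left-out animals; all that use the split into 70 and 22 were added after seeing the data.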

Additional observations from a re-analysis of the deposited data

How the results depend on the processing

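The count of 0 genes between high and low was also 0 after rescaling to nuclear genes, centring on the median, adding the title-number run, marker scores or 3 principal components, adding 1 before the log, dropping genes with a mean under 1, leaving out the 4 most extreme animals, or taking the share from mt-Co1 and mt-Cytb. It was 2 for the slope over 92 animals, 1 over the 46 middle animals, 4 for 23 high against the 3 low animals of usual proportions (Eci3, Elovl7, Myh13 and 2610507I01Rik) and 127 for the slope in 70, and 0 to 1 with any 1 animal left out. The middle count of 1 became 14 without the 2 animals apart and 0 with the run. The 127 became 233 with 3 principal components, 476 in 92 animals with the set as covariate and 0 in the 22 alone. It was 85 to 153 with any 1 of the 70 left out, 112 without the 2 farthest animals and 150 for the share from mt-Co1 and mt-Cytb. The cause of these changes was not tested.

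Among named genes that passed no test between the groups, the sign changed in these cases. In the middle 46 the slope was -0.021 for Tfam, 0.0121 for Lrpprc, 7.84e-05 for Slirp, -0.0283 for Mtpap, -0.0074 for Ppargc1b, 0.0346 for Myh7 and 0.0707 for Myh2. Without the 22 the difference was -0.11 for Tfam, 0.14 for Lrpprc, 0.12 for Ppargc1a and 0.0758 for Myh4. In the 70 the slope was -0.0048 for Tfam, 0.0361 for Lrpprc, 0.0117 for Slirp and 0.0504 for Ppargc1a. Lrpprc was at 0.0093 and Gabpa at 0.0425 with principal components, Esrrg at -0.0422 without the extreme animals, Nrf1 at 0.00093 over 92 animals and 0.0125 with the share from mt-Co1 and mt-Cytb, and Cs at -0.0062 with marker scores.

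A share from protein-coding messages alone could not differ, since all 13 are protein coding. No paired analysis was possible because the labels give 1 group only. Depth and RNA quality are unknown.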
